A study of Mus musculus with 10 samples.

Results

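Cells bring amino acids across their membranes with carriers of the solute carrier (SLC) superfamily, and the genes described here are the mouse members of families SLC1, SLC3, SLC6, SLC7, SLC36, SLC38 and SLC43. They were chosen by name only, as every symbol of the deposited count table that begins with one of these family names followed by a number, which gave 64 of 21868 genes. Of the 64, 62 are carriers or carrier subunits, and Slc7a6os and Slc6a19os are neighbouring genes that only carry the name. Several of the 62 move other solutes, such as creatine (Slc6a8), monoamines (Slc6a2, Slc6a3 and Slc6a4) or purine bases (Slc43a3). All 62 were followed in bulk RNA sequencing of cells sorted from mouse retina.

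The cells were live and positive for CD11b, a myeloid integrin, with an intermediate level of CD45, and they were divided by surface CD36, a scavenger receptor that takes up fatty acids and oxidised lipoproteins. CD36-positive cells gave 5 libraries, numbered 1, 2, 3, 4 and 7 in the description labels, and CD36-negative cells gave 5, numbered 1, 2, 4, 7 and 8; values by library follow that order. The labels call both groups microglia, the resident macrophages of the retina, and the titles call all 10 WT. The treatment field describes intravenous NaIO3, an oxidant that injures the retinal pigment epithelium, at 20 mg/kg, with PBS as the control and eyes collected 7 days later, but does not say which treatment any of these 10 samples had. Strain, age, sex and the number of animals behind a library are not stated either, so p-values measure the spread between these samples, which may be technical. In bulk RNA, fewer cells of a type and less RNA per cell cannot be told apart.

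As background, amino acid carriers differ in what drives them. SLC38 and most SLC6 and SLC1 carriers use the sodium gradient to concentrate amino acids, SLC36 carriers use protons, and many SLC7 light chains exchange one amino acid for another after pairing with the heavy chain Slc3a2 (CD98, 4F2hc), which brings them to the surface. Leucine, arginine and glutamine that enter in this way are sensed at the lysosome and switch on mTORC1, and a shortage induces carriers such as Slc7a11, Slc7a5 and Slc38a2 through the transcription factor ATF4. In macrophages, arginine uptake feeds nitric oxide and polyamine synthesis, and cystine uptake feeds glutathione. The retina is also rich in taurine, which is brought in by Slc6a6.

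The libraries held 5001665 to 13250954 counts, lowest in CD36-positive libraries 1 and 3, and 1 count was worth 0.0792 to 0.186 CPM (counts scaled to a common library size with TMM factors). On principal components of all genes, the first (35.9% of the variance) separated the groups, the second (15.9%) set CD36-positive library 1 apart and the third (12.3%) CD36-positive library 3. Cd36 itself had 252, 255, 234, 182 and 170 CPM in CD36-positive libraries, against 41.8, 54.9, 55.3, 48.8 and 50.8 CPM in CD36-negative libraries, a log2 fold change of 2.12 (SE 0.18). The 7 homeostatic microglia markers reported (P2ry12, Tmem119, Cx3cr1 and others) were present in both groups, with a summed level of 2543 to 4623 CPM in the CD36-positive and 1788 to 4136 CPM in the CD36-negative libraries, and 0 of 7 passed edgeR's test, DESeq2's or limma voom's, with 1 (Fcrls) at an unadjusted p under 0.05 in edgeR. Markers of other cells did differ. Of all genes tested, 4.74% fell by edgeR's test and 10.8% were lower at an unadjusted p under 0.05. The dendritic cell list summed to 14.8 to 68.9 CPM in CD36-positive libraries, against 773 to 1172 CPM in CD36-negative libraries, and 11 of its 11 tested genes fell. The monocyte list ranged from 469 to 974 CPM in CD36-positive libraries, against 1263 to 2242 CPM in CD36-negative ones (7 of 10 fell). Neutrophil markers summed to 82.4 to 193 CPM in the CD36-positive group, against 308 to 842 CPM in the CD36-negative group (6 of 7 fell, with Retnlg, G0s2, Ly6g and Ngp at 0 in every CD36-positive library). Retnlg and G0s2, among the 6, were kept by the filter on low counts through the CD36-negative libraries alone. The T and NK cell list came to 0.338 to 8.74 CPM in CD36-positive libraries, against 57.2 to 334 CPM in CD36-negative ones (6 of 6 fell, with Prf1 at 0 in every CD36-positive library). With the whole list as low as 0.338 CPM, the CD36-positive libraries alone could not have carried any of these 6 through the filter. Their falls are therefore not independent of the filter. Photoreceptor markers came to 114 to 886 CPM in CD36-positive libraries, against 382 to 2323 CPM in CD36-negative ones (2 of 9 fell, 7 of 9 were lower at an unadjusted p under 0.05, and all 9 estimates were negative, with a median log2 fold change of -1.62). These lists move with every difference between the groups given below, and their part in it was not tested.

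A small number of the transporters differed between the groups. Of the 62, 29 passed the filter on low counts and were tested, and 4 of the 29 (13.8%) passed edgeR's quasi-likelihood test at an adjusted p of 0.05, where 7.36% of all 11595 genes tested did. One of the 4, Slc6a13, was at 0 in every CD36-positive library and was kept by the filter through the CD36-negative libraries alone, and it enters each count of genes past the test or without overlap. Slc38a6 rose in CD36-positive cells, where 2.61% of all genes rose. Slc1a5, Slc38a1 and Slc6a13 fell, where 4.74% of all genes fell. Of the 29, the same 4 were the ones whose groups did not overlap, which held for 8.41% of all genes tested (2.59% higher and 5.82% lower). At an unadjusted p under 0.05, 4 were higher and 4 lower, where 10.6% and 10.8% of all genes were. limma voom called 1 higher and 3 lower, against 2.79% and 5.22% of all genes, and DESeq2 called 3 higher and 3 lower, against 4.33% and 6.07%. Over the fits that left out 1 library each, 0 to 2 transporters were higher and 1 to 3 lower, and without CD36-positive libraries 1 and 3 together 0 were higher and 2 lower. The median log2 fold change over the 29 was 0.02, as it was over all genes tested, and 15 of the 29 had a positive and 14 a negative estimate. The 62 transporters summed to 1537 to 1926 CPM in CD36-positive libraries and to 1421 to 1816 CPM in CD36-negative libraries.

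**Figure D1:**
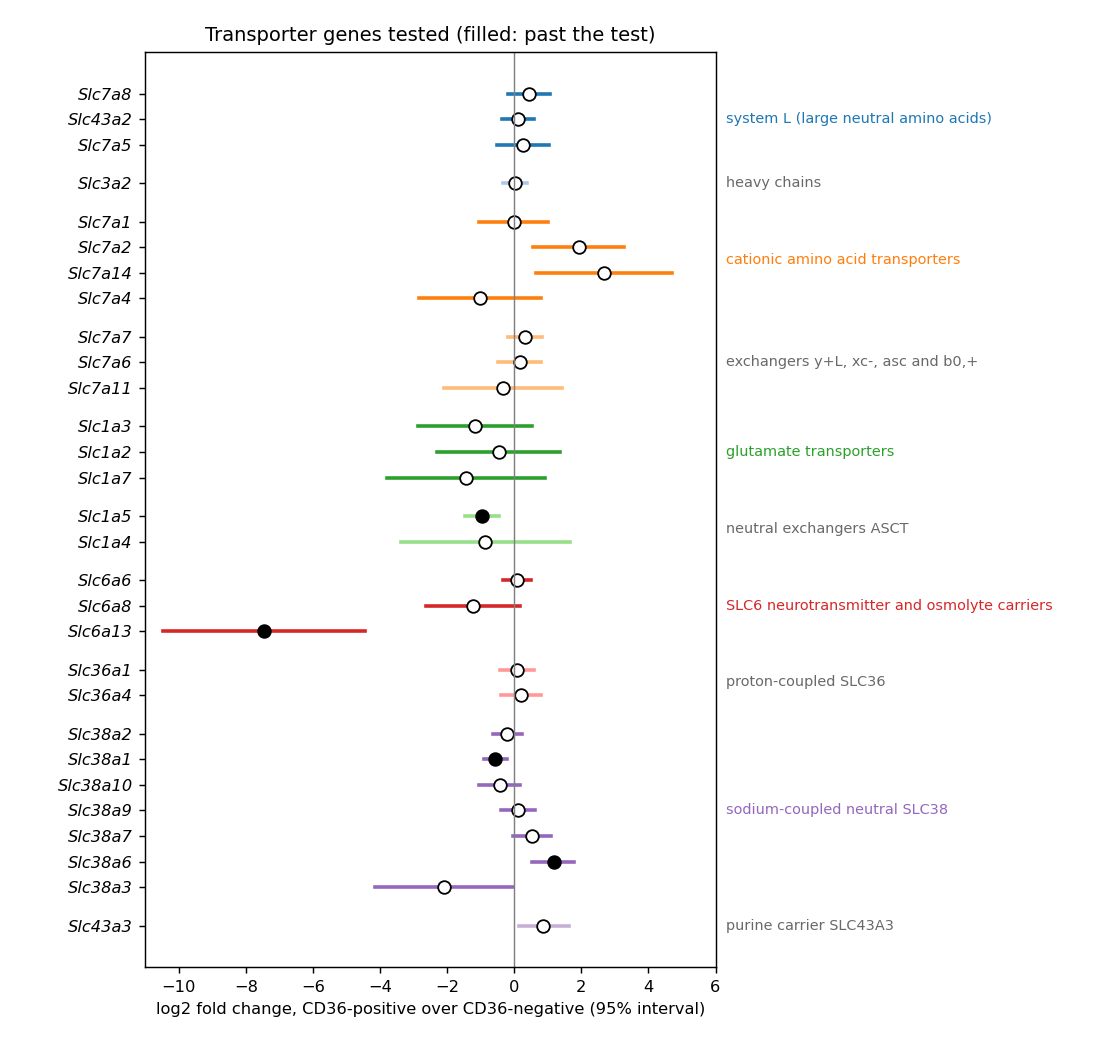
Log2 fold change of CD36-positive over CD36-negative libraries (horizontal axis; points, with 95% intervals as lines) for the 29 tested transporters, grouped by role down the page, n = 5 libraries a group. The filled points are the 4 genes past the test: Slc38a6 at 1.17, and Slc38a1, Slc1a5 and Slc6a13 on the negative side, where the fitted value of Slc6a13 depends on how a group without counts is handled.

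The 25 genes that did not pass are not shown to be equal in the groups. Precision varied widely: the half-width of the 95% interval ran from 0.34 log2 units in Slc38a1 to 3.02 in Slc6a13, over the 29 tested. Both of those genes passed. Among the 25, the narrowest interval was that of Slc3a2 (-0.35 to 0.39) and the widest that of Slc1a4 (-3.37 to 1.65). The whole interval lay within 1 log2 unit of 0 in either direction for 9 of the 25, and for those genes a larger change lay outside the interval.

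Per kilobase of transcript, the scale on which genes of different length can be compared, the heavy chain Slc3a2 led both groups, with 182 ± 36.4 CPM per kb in CD36-positive and 180 ± 23.1 CPM per kb in CD36-negative libraries (SD, n = 5 each). The taurine carrier Slc6a6 followed with 52.2 ± 17.4 CPM per kb in CD36-positive and 49.3 ± 2.59 CPM per kb in CD36-negative libraries. After it came the light chains: Slc7a7 had 39.5 ± 10.6 CPM per kb in CD36-positive and 31.8 ± 9.92 CPM per kb in CD36-negative libraries, and Slc7a8 had 36.9 ± 11.2 CPM per kb in CD36-positive and 27.5 ± 12 CPM per kb in CD36-negative libraries. Slc7a7 and Slc7a8 lay within each other's spread, so their order was not resolved. Slc6a6 and Slc3a2 together held 38.2 ± 2.63% of all transporter counts in CD36-positive and 37.5 ± 1.98% in CD36-negative libraries. At the other end, the glutamate carrier Slc1a7 had 0.173 ± 0.240 CPM per kb in CD36-positive and 0.484 ± 0.309 CPM per kb in CD36-negative libraries.

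**Figure D2:**
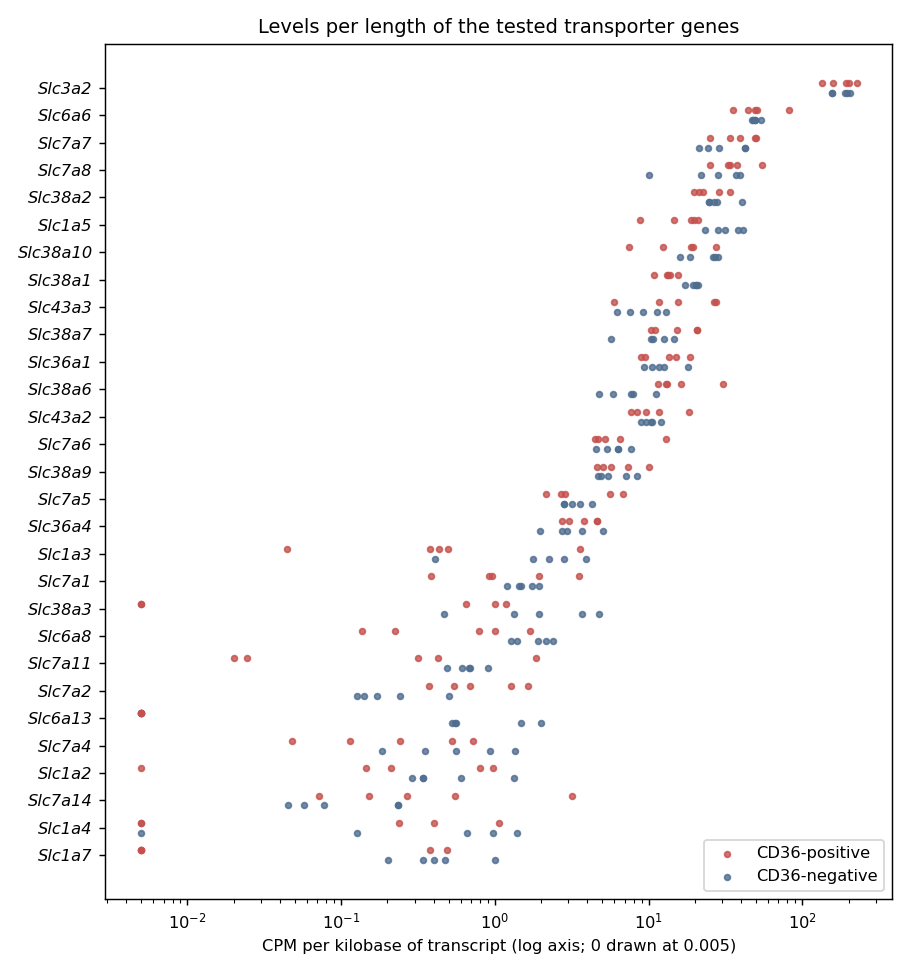
Level of the 29 tested transporters in CPM per kilobase of transcript (log axis) in each library, with CD36-positive above CD36-negative in each pair and genes ordered by their mean over all 10 libraries. Slc3a2 stands highest, at 182 CPM per kb on average in CD36-positive and 180 CPM per kb in CD36-negative libraries, and Slc1a7 lowest, and most pairs overlap.

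Among the sodium-coupled SLC38 carriers, which move small neutral amino acids and glutamine, 1 gene rose, 1 fell and 5 of the 7 tested did not pass. Of all genes, 2.61% rose and 4.74% fell. At an unadjusted p under 0.05, 1 was higher and 2 lower, where 10.6% and 10.8% of all genes were. DESeq2 called 1 higher and 1 lower, against 4.33% and 6.07% of all genes, and limma voom the same 2, against 2.79% and 5.22%. Slc38a6, a family member whose substrates are less well settled, had 91.9, 39.4, 40.1, 49.0 and 35.1 CPM in CD36-positive libraries, against 33.7, 24.1, 14.5, 23.4 and 17.7 CPM in CD36-negative libraries. Its counts were fractional in 40% of libraries. The groups did not overlap, the narrowest gap being between CD36-positive library 7 and CD36-negative library 1, and CD36-positive library 1 stood far above the rest. The gene (GRCm38 chr12:73286779-73354049, plus strand) had a mean of 51.1 ± 23.4 CPM over the CD36-positive and 22.7 ± 7.34 CPM over the CD36-negative libraries (SD, n = 5 each). On the log2 scale the fold change was 1.17 with an SE of 0.30 and a 95% interval of 0.54 to 1.79 (adjusted p = 0.0223 in edgeR's quasi-likelihood test). Without CD36-positive library 1 the estimate was 0.85 (adjusted p = 0.0539 by the same edgeR test). Without CD36-negative library 4, 7 or 8 it was 1.02, 1.18 or 1.09 (edgeR adjusted p = 0.0769, 0.0509 and 0.0633). The call was lost in each of these fits, though the estimate did not fall without CD36-negative library 7. Leaving out CD36-negative library 4, 7 or 8 also lowered the share of all genes called, from 7.36% to 4.68%, 5.32% or 5.54%.

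Slc38a1, which takes up glutamine with sodium, fell in CD36-positive cells. It had 113, 97.9, 78.7, 100 and 96.0 CPM in CD36-positive libraries, against 148, 126, 142, 152 and 148 CPM in CD36-negative libraries. The groups did not overlap. The gene (GRCm38 chr15:96571418-96642913, minus strand) had a mean of 97.2 ± 12.3 CPM over the CD36-positive and 143 ± 10.4 CPM over the CD36-negative libraries (SD, n = 5 each). On the log2 scale the fold change was -0.56 with an SE of 0.16 and a 95% interval of -0.90 to -0.22 (adjusted p = 0.0454 in edgeR's quasi-likelihood test). The call was close to the threshold: it was lost on leaving out any library other than CD36-positive library 1, with estimates of -0.62 to -0.49 and edgeR adjusted p of 0.0226 to 0.106 over the 10 fits.

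The remaining SLC38 genes did not pass. Slc38a2, the starvation-induced neutral carrier, had 157, 91.7, 134, 99.2 and 105 CPM in CD36-positive libraries, against 190, 116, 116, 125 and 130 CPM in CD36-negative libraries, a log2 fold change of -0.21 (SE 0.20). Slc38a10 had 34.2, 88.8, 56.5, 125 and 86.6 CPM in CD36-positive libraries, against 84.9, 73.0, 124, 129 and 121 CPM in CD36-negative libraries (log2 fold change -0.44, SE 0.28). In both, the groups overlapped. Slc38a7, which exports glutamine from lysosomes, had 50.8, 36.8, 34.4, 69.3 and 68.8 CPM in CD36-positive libraries, against 35.6, 19.1, 49.1, 34.6 and 42.2 CPM in CD36-negative libraries (log2 fold change 0.53, SE 0.27). Slc38a9, the lysosomal carrier that senses arginine for mTORC1, had 65.7, 41.2, 89.3, 50.7 and 44.9 CPM in CD36-positive libraries, against 63.3, 43.5, 41.7, 48.3 and 74.4 CPM in CD36-negative libraries (log2 fold change 0.10, SE 0.24). Neither lysosomal member separated the groups. Slc38a3, the glutamine carrier of glia, had at most 3.73 CPM in the CD36-positive and 15 CPM in the CD36-negative libraries (log2 fold change -2.10, SE 0.97).

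Of the pair of neutral exchangers known as ASCT, Slc1a5 fell and Slc1a4 did not pass. Slc1a5 (ASCT2) swaps glutamine for other neutral amino acids. It had 24.4, 54.3, 40.4, 58.3 and 52.5 CPM in CD36-positive libraries, against 114, 86.3, 105, 64 and 78.6 CPM in CD36-negative libraries. The groups did not overlap, and CD36-positive library 1 was the lowest of the 10. The gene (GRCm38 chr7:16781340-16798274, plus strand) had a mean of 46.0 ± 13.8 CPM over the CD36-positive and 89.6 ± 20.2 CPM over the CD36-negative libraries (SD, n = 5 each). On the log2 scale the fold change was -0.96 with an SE of 0.24 and a 95% interval of -1.47 to -0.45 (adjusted p = 0.0216 in edgeR's quasi-likelihood test). On leaving out library 3 of the CD36-positive group, or library 1 or 4 of the CD36-negative group, the estimate was -0.91, -0.86 or -0.92 and the edgeR adjusted p was 0.0519, 0.0658 or 0.0575. Slc1a4 (ASCT1), a serine exchanger, was sparse, at 0 to 4.18 CPM in the CD36-positive and 0 to 5.43 CPM in the CD36-negative libraries.

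**Figure D3:**
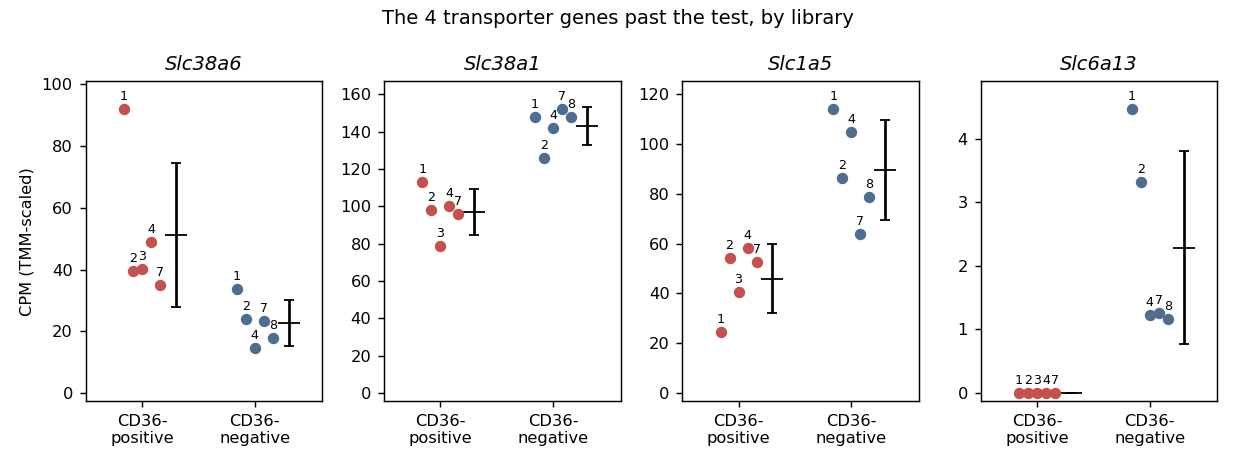
CPM by library (points, numbered as in the labels; bars show mean ± SD, n = 5) of the 4 transporters past the test, with CD36-positive left of CD36-negative in each panel and vertical axes from 0. The groups do not overlap in any panel, library 1 stands above the other CD36-positive libraries for Slc38a6 at 91.9 CPM, and Slc6a13 is at 0 in every CD36-positive library.

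Slc3a2, the heavy chain, did not pass, and its interval was among the narrow ones. It had 287, 367, 243, 348 and 411 CPM in CD36-positive libraries, against 282, 282, 357, 370 and 344 CPM in CD36-negative libraries. The log2 fold change was 0.02 (SE 0.18), with a 95% interval of -0.35 to 0.39. Counts of Slc3a2 were fractional in 90% of libraries, so the counting did not assign whole reads only.

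None of its tested light chains passed edgeR's test, DESeq2's or limma voom's, and 0 had an unadjusted p under 0.05 in edgeR. Slc7a8 (LAT2), an exchanger of neutral amino acids, had 139, 134, 102, 225 and 153 CPM in CD36-positive libraries, against 89.7, 41.3, 116, 152 and 161 CPM in CD36-negative libraries (log2 fold change 0.43, SE 0.30). Slc7a7 (y+LAT1), which exports cationic amino acids from macrophages and is mutated in lysinuric protein intolerance, had 57.5, 89.3, 77.0, 114 and 112 CPM in CD36-positive libraries, against 55.4, 48.6, 65.1, 96.6 and 95.9 CPM in CD36-negative libraries (log2 fold change 0.32, SE 0.24). Both overlapped between the groups. Slc7a7 lies across Oxa1l on the opposite strand, its counts were fractional in every library, and whether the counting used strand is not stated, so its level is uncertain. Slc7a6 (y+LAT2) had 17.7, 16.8, 19.5, 48.5 and 24.5 CPM in CD36-positive libraries, against 28.8, 23.6, 20.2, 23.8 and 17.1 CPM in CD36-negative libraries (log2 fold change 0.16, SE 0.31). Slc7a5 (LAT1), the leucine importer of proliferating cells, was lower in level, with 24, 7.56, 19.8, 9.46 and 10.1 CPM in CD36-positive libraries, against 11.2, 15, 9.92, 9.92 and 12.6 CPM in CD36-negative libraries (log2 fold change 0.26, SE 0.37). The highest 2 Slc7a5 values were those of CD36-positive libraries 1 and 3, the shallowest.

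The same light chains, Slc7a7 and Slc7a8, led the pool in both groups. Slc7a7 gave 45.0 ± 6.37% of the summed per-kilobase level of 6 light chains (Slc7a5, Slc7a6, Slc7a7, Slc7a8, Slc7a10 and Slc7a11) in CD36-positive and 45.8 ± 3.26% in CD36-negative libraries, and Slc7a8 gave 41.8 ± 5.22% in CD36-positive and 38 ± 8.22% in CD36-negative libraries (SD, n = 5 each). The summed light chains were at 87.8 ± 21.3 CPM per kb in CD36-positive and 69.4 ± 20.9 CPM per kb in CD36-negative libraries. Slc3a2 exceeded that sum 2.12 ± 0.384 times in CD36-positive and 2.73 ± 0.621 times in CD36-negative libraries, and the ranges overlapped, at 1.59 to 2.55 in CD36-positive and 2.08 to 3.65 in CD36-negative libraries. Slc7a7, whose level is uncertain, enters each of these sums.

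**Figure D4:**
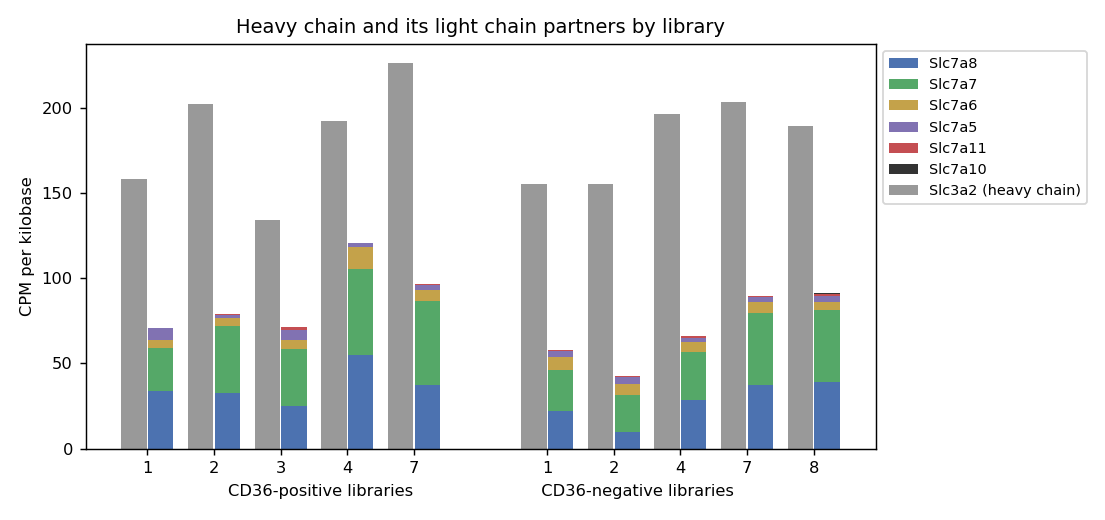
Per-kilobase level of the heavy chain Slc3a2 (grey bars) beside the stacked levels of 6 light chains in each library, CD36-positive libraries on the left and CD36-negative libraries on the right, on a linear axis from 0. In each of the 10 libraries the heavy chain exceeds the light chain sum, by 1.59 to 3.65 times, and Slc7a7 and Slc7a8 make up most of the stack.

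Slc43a2 (LAT4), a facilitated carrier of large neutral amino acids that needs no heavy chain, had 130, 60.1, 55, 83.8 and 68.9 CPM in CD36-positive libraries, against 86.5, 74.8, 74.4, 69.0 and 64.1 CPM in CD36-negative libraries (log2 fold change 0.11, SE 0.23). Slc43a3, of the same family but a purine base carrier, had 40.4, 70.7, 69.1, 15.3 and 30.1 CPM in CD36-positive libraries, against 33.5, 19.7, 16.2, 23.9 and 29.5 CPM in CD36-negative libraries. CD36-positive library 4 was the lowest of the 10 and 3 CD36-positive libraries were the highest, giving a log2 fold change of 0.87 (SE 0.35, adjusted p = 0.154 in edgeR's quasi-likelihood test). Without CD36-positive library 4 it was 1.09 and past the threshold (edgeR adjusted p = 0.0347).

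The cystine and glutamate exchanger Slc7a11 (xCT), which supplies cysteine for glutathione, is shown with its promoter because it is a textbook target of ATF4, whose other response genes are counted after it. It had 0.186, 3.95, 17.2, 0.225 and 2.93 CPM in CD36-positive libraries, against 6.26, 4.53, 6.34, 5.64 and 8.36 CPM in CD36-negative libraries. Its counts were fractional in 70% of libraries. CD36-positive library 3 was the highest of the 10 and the other 4 CD36-positive libraries lay below every CD36-negative library, so the log2 fold change was -0.35 (SE 0.84), and -1.74 without CD36-positive library 3 (edgeR adjusted p = 0.256). The 250 bases before its start (RefSeq, GRCm38.p6, chr3:50443614-50443863, minus strand, read 5′ to 3′) hold both orientations of the letters TGATGNAA, which spell the amino acid response element bound by ATF4 with its partner C/EBP. Capitals mark these matches, which begin 66 and 47 bases before the start:

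Slc7a11: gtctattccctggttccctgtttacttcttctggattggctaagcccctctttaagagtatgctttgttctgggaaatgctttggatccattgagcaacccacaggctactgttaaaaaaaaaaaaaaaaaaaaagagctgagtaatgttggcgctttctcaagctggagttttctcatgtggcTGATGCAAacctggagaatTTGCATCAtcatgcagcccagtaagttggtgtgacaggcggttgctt

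Searched on both strands (TGATGNAA or TTNCATCA), the letters were in 1134 of 32851 such RefSeq windows (3.45%) and occurred 2 or more times in 13 (0.0396%). Of the transporters, 44 had a window, with 65 windows between them, and 2 genes, Slc7a11 and Slc7a7, held a match. The count of 2 is of genes, while the 3.45% is of windows. A match is a run of letters and not a measured binding site.

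In the list of other ATF4 response genes, 0 of 20 tested rose and 1 fell by edgeR's test, with a median log2 fold change of -0.30; over all genes 2.61% rose and 4.74% fell. At an unadjusted p under 0.05, 1 was higher and 5 lower, where 10.6% and 10.8% of all genes were. DESeq2 called 0 higher and 3 lower, against 4.33% and 6.07% of all genes, and limma voom 0 higher and 4 lower, against 2.79% and 5.22%. The one that fell was Mthfd2, a mitochondrial folate enzyme, at 31.3, 23.5, 29.7, 34.1 and 28.3 CPM in CD36-positive libraries, against 55.2, 55.7, 39.7, 60.3 and 48.1 CPM in CD36-negative libraries. Its groups did not overlap, and the log2 fold change was -0.82 (SE 0.20, adjusted p = 0.0175 in edgeR's quasi-likelihood test). Without CD36-negative library 7 it was -0.76 (edgeR adjusted p = 0.0574).

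None of the 4 tested cationic amino acid transporters passed edgeR's test or limma voom's, while 2 had an unadjusted p under 0.05 and passed the DESeq2 Wald test. Both were higher, where 10.6% of all genes were at that unadjusted p and 4.33% by DESeq2. Of these 2, Slc7a2 (CAT2), the arginine importer of activated macrophages, had 10.0, 2.94, 13, 4.28 and 5.47 CPM in CD36-positive libraries, against 3.95, 1.01, 1.12, 1.36 and 1.92 CPM in CD36-negative libraries, so that the groups overlapped only through CD36-negative library 1. The log2 fold change was 1.92 (SE 0.64, adjusted p = 0.0831 in edgeR's quasi-likelihood test), while the DESeq2 Wald test gave an adjusted p of 0.0116. Slc7a1 (CAT1), the general arginine importer, had 2.77 to 25.4 CPM in the CD36-positive and 8.56 to 14.0 CPM in the CD36-negative libraries. Slc7a14, a lysosomal family member in which mutations cause retinitis pigmentosa, had 28.3 CPM in CD36-positive library 1 and 0.634 to 4.87 CPM in the other 4, against 0.403 to 2.09 CPM in CD36-negative libraries. Its log2 fold change of 2.67 (SE 0.96, edgeR adjusted p = 0.108; DESeq2 Wald adjusted p = 0.0264) was 0.97 without CD36-positive library 1, and its counts were fractional in every library. Slc7a4, an orphan of the group, had at most 2.37 CPM in the CD36-positive and 4.46 CPM in the CD36-negative libraries.

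The glutamate carriers, which clear the transmitter in the retina mostly through glia, were sparse, and 0 of 3 tested passed edgeR's test, DESeq2's or limma voom's or had an unadjusted p under 0.05 in edgeR. Slc1a3 (GLAST), the main one of Müller glia, had 0.186, 1.58, 14.9, 1.80 and 2.06 CPM in CD36-positive libraries, against 7.38, 1.71, 9.30, 11.7 and 16.3 CPM in CD36-negative libraries. CD36-positive library 3 was apart from the other 4, which gave a log2 fold change of -1.18 (SE 0.81). Without that library it was -2.67 and past the threshold (adjusted p = 0.0403 in edgeR's quasi-likelihood test). In CD36-positive library 3, the 10 Müller glia and astrocyte markers ran from 0 (Aqp4 and Gfap), through 0.716 CPM for Clu, 1.43 CPM for Sox9, 3.58 CPM for Rlbp1 and 7.74 CPM for Dkk3, to 40.1 CPM for Kcnj10, 112 CPM for Glul, 202 CPM for Vim and 16483 CPM for Apoe. That list summed to 10148 to 30816 CPM in CD36-positive and 16424 to 22258 CPM in CD36-negative libraries. In CD36-positive library 3 nearly all of the sum was Apoe, so it says little about the other markers. Of 7 tested, Kcnj10 rose and Clu and Vim fell, where 2.61% of all genes rose and 4.74% fell. The part of these markers in the Slc1a3 value was not tested. Slc1a2 (GLT-1) had 11.2, 9.26, 2.44, 1.69 and 0 CPM in CD36-positive libraries, against 3.95, 15.4, 6.95, 3.34 and 3.93 CPM in CD36-negative libraries (log2 fold change -0.46, SE 0.87). Slc1a7 (EAAT5), a carrier of photoreceptors and bipolar cells, was above 0 in only some libraries of CD36-positive cells, with at most 1.47 CPM, and had 0.604 to 3.03 CPM in CD36-negative libraries.

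Of the SLC6 carriers of neurotransmitters and osmolytes, 3 of 15 were tested, and 1 fell and 0 rose by edgeR's test, DESeq2's and limma voom's. Of all genes, 4.74%, 6.07% and 5.22% fell by these 3 tests. At an unadjusted p under 0.05 the count was also 1 lower and 0 higher, where 10.8% and 10.6% of all genes were. Slc6a6 (TauT), the taurine carrier whose loss causes photoreceptor degeneration in mice, had 504, 218, 305, 312 and 274 CPM in CD36-positive libraries, against 332, 291, 294, 306 and 303 CPM in CD36-negative libraries. The CD36-positive libraries lay on both sides of the narrow CD36-negative range, library 1 highest and library 2 lowest of the 10, and the log2 fold change was 0.08 (SE 0.20, 95% interval -0.34 to 0.50). Slc6a8, the creatine carrier, had 0.452 to 5.63 CPM in the CD36-positive and 4.20 to 7.94 CPM in the CD36-negative libraries (log2 fold change -1.24, SE 0.67).

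Slc6a13 (GAT2), a carrier of GABA, betaine and taurine found in meninges and at blood barriers, was read in CD36-negative libraries alone, and from few reads. It had 0 counts in each of the 5 CD36-positive libraries, against 52, 33, 12, 12 and 14 counts in CD36-negative libraries, or 4.46, 3.32, 1.23, 1.25 and 1.17 CPM. Each CD36-negative library held at least 12 counts, with the most in libraries 1 and 2. The gene (GRCm38 chr6:121300227-121337733, plus strand) was lower in CD36-positive cells (adjusted p = 0.00502 in edgeR's quasi-likelihood test). With counts summed over each group and a floor of 3 counts for the CD36-positive group, the level was 33.7-fold lower. That value covers counting error only and leaves out the spread between libraries, so it is not a lower bound. The interval of the log2 fold change computed from the edgeR fit was -10.48 to -4.44. Its nearer end is a smaller change than 33.7-fold. Because the fitted value depends on how a group without counts is handled, that end is not a bound either. Slc6a13 passed the filter only through the CD36-negative libraries. The endothelial marker list moved the same way and summed to 6.14 to 10.3 CPM in the CD36-positive and 25.2 to 32.3 CPM in the CD36-negative libraries. Pecam1 and Flt1 were lower among 3 tested, where 4.74% of all genes fell, and Cldn5 was at 0 in every CD36-positive library. The part of this list in the result was not tested.

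Of 2 tested SLC36 carriers, 0 passed edgeR's test, DESeq2's or limma voom's or had an unadjusted p under 0.05 in edgeR. Slc36a1 (PAT1), which exports small amino acids from lysosomes, had 79.1, 47.1, 49.6, 98.2 and 71.6 CPM in CD36-positive libraries, against 55.2, 49.0, 61.4, 94.6 and 66.7 CPM in CD36-negative libraries (log2 fold change 0.08, SE 0.24). Slc36a4 (PAT4) had 17.9 to 30.4 CPM in the CD36-positive and 12.9 to 32.9 CPM in the CD36-negative libraries. The neighbouring gene Slc7a6os, counted apart, had a log2 fold change of -0.37 (SE 0.29) and did not pass.

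The other 33 transporters were below the filter. Slc6a16 and Slc6a20b were at 0 in every library, and 31 had at least 1 count, the most being 122 over the 10 libraries in Slc36a2. This group held all 5 of the B0AT-like carriers of epithelia (Slc6a15, Slc6a18, Slc6a19, Slc6a20a and Slc6a20b), 12 of the 15 neurotransmitter and osmolyte carriers, and the second heavy chain Slc3a1, a partner of kidney and gut exchangers. Among them, Slc7a10 (asc-1), a small neutral exchanger, had 0 counts in CD36-positive and 13 in CD36-negative libraries, and Slc38a8 had 19 counts in CD36-positive and 0 in CD36-negative libraries. Both came from 2 libraries only. Slc6a18 had 8, 3, 3, 2 and 2 counts in CD36-positive libraries, against 0, 0, 1, 1 and 1 in CD36-negative libraries, and Slc7a15 had 3, 1, 11, 1 and 2 counts in CD36-positive libraries, against 0, 1, 0, 0 and 0 in CD36-negative libraries. In CPM the groups of Slc6a18 and Slc7a15 did not overlap, but all of these counts other than the 8 and the 11 are within the 3 that a count of 0 allows. Slc6a20a had 4 counts in CD36-positive and 59 in CD36-negative libraries, the 59 all from 1 library. A count of 0 in a single library allows up to 3 counts, which is 0.238 to 0.558 CPM here and covers counting error only.

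**Figure D5:**
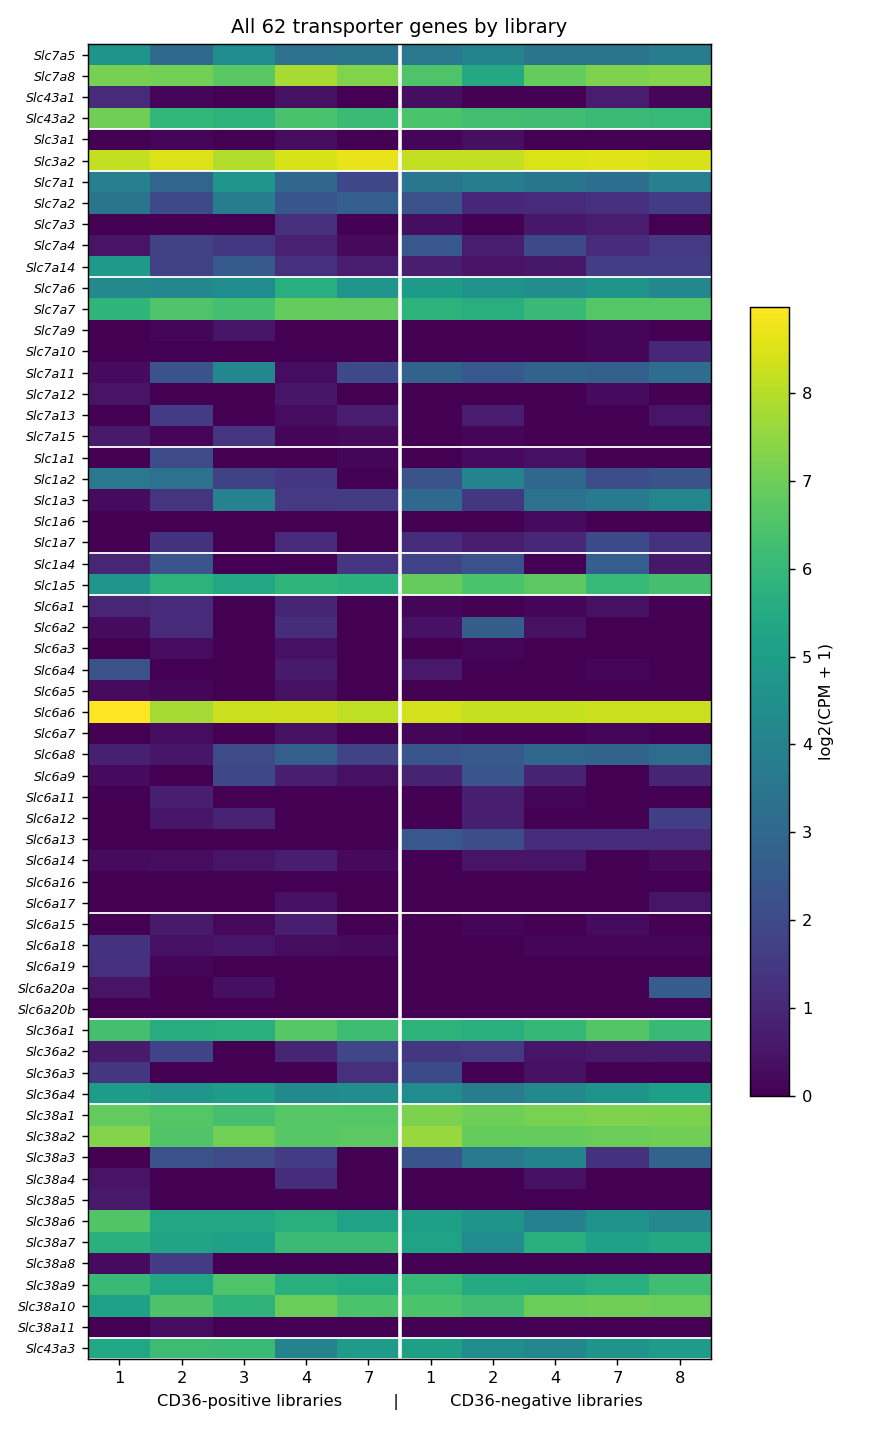
Level of all 62 transporter genes (down the page, grouped by role) in each library, CD36-positive libraries left and CD36-negative libraries right, as log2(CPM + 1) on the colour scale. A few genes, led by Slc3a2 and Slc6a6, are bright in all 10 libraries, and the 33 genes below the filter are dark in nearly all.

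Genes of other steps in amino acid handling were also mostly below the threshold, with 4 of 147 tested genes higher and 4 lower in CD36-positive cells over 8 lists, the ATF4 list included, against 2.61% and 4.74% of all genes. Of 34 genes of lysosomal amino acid sensing and mTORC1, 1 rose and 0 fell by edgeR's test (median log2 fold change 0.02). At an unadjusted p under 0.05, 3 were higher and 1 lower, where 10.6% and 10.8% of all genes were. The one that rose was Sesn1, a leucine-sensing brake on mTORC1, at 221, 174, 116, 219 and 262 CPM in CD36-positive libraries, against 106, 103, 130, 123 and 125 CPM in CD36-negative libraries. All but CD36-positive library 3 lay above the CD36-negative range (log2 fold change 0.76, SE 0.20, adjusted p = 0.0301 in edgeR's quasi-likelihood test). The call was lost in 7 of the 10 fits that left out 1 library (edgeR adjusted p 0.00476 to 0.078, estimates 0.63 to 0.90): without CD36-positive library 4 or 7 or without any 1 CD36-negative library.

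Of 13 arginine and polyamine enzymes, 1 rose and 0 fell by edgeR's test, DESeq2's and limma voom's (median log2 fold change 0.03). Over all genes, 2.61%, 4.33% and 2.79% rose and 4.74%, 6.07% and 5.22% fell by these 3 tests. At an unadjusted p under 0.05, 1 was higher and 1 lower, where 10.6% and 10.8% of all genes were. The one that rose, Sat1, which acetylates spermidine and spermine for export, had 1696, 2382, 1771, 1895 and 2253 CPM in CD36-positive libraries, against 1292, 1407, 1020, 1111 and 1205 CPM in CD36-negative libraries. It was abundant in all 10 and its groups did not overlap (log2 fold change 0.73, SE 0.17, adjusted p = 0.0126 in edgeR's quasi-likelihood test). Without CD36-negative library 4 the estimate was 0.65 (edgeR adjusted p = 0.0599).

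Of 12 glutathione enzymes, 2 rose and 1 fell by edgeR's test and limma voom's (median log2 fold change -0.35). Of all genes, 2.61% rose and 4.74% fell by edgeR's test, and 2.79% and 5.22% by limma voom's. At an unadjusted p under 0.05, 2 were higher and 4 lower (Ggt5, Gpx1, Gsr and Gsto1), where 10.6% and 10.8% of all genes were. DESeq2 called 2 higher and 2 lower (Ggt1 and Gsr), against 4.33% and 6.07% of all genes. Oplah, which recycles oxoproline to glutamate, had 18, 31.0, 17.9, 29.3 and 30.4 CPM in CD36-positive libraries, against 4.46, 10.5, 5.01, 10.6 and 9.61 CPM in CD36-negative libraries (log2 fold change 1.66, SE 0.34, adjusted p = 0.00515 in edgeR's quasi-likelihood test). Chac2, which degrades glutathione and was named after its values were seen, averaged 11.4 ± 1.56 CPM in the CD36-positive and 4.09 ± 1.34 CPM in the CD36-negative libraries (SD, n = 5 each; edgeR adjusted p = 0.0391). Gsr, which reduces oxidised glutathione, went the other way, with 21.6, 34.7, 35.4, 26.9 and 38.7 CPM in CD36-positive libraries, against 65.6, 76.1, 109, 106 and 104 CPM in CD36-negative libraries (log2 fold change -1.55, SE 0.22, adjusted p = 0.000233 in edgeR's quasi-likelihood test). The groups did not overlap for Oplah, Chac2 or Gsr, which held for 8.41% of all genes tested. Oplah and Gsr kept their calls in all 10 fits that left out 1 library. The call of Chac2, at a log2 fold change of 1.48, was lost on leaving out any library other than CD36-positive library 1, with estimates of 1.34 to 1.61 and edgeR adjusted p of 0.0468 to 0.0995.

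Among 22 other amino acid and peptide carriers, 0 rose and 2 fell by edgeR's test (median log2 fold change -0.11), both mitochondrial. Of all genes, 2.61% rose and 4.74% fell. DESeq2 called 2 higher and the same 2 lower, against 4.33% and 6.07% of all genes. limma voom called 1 higher and 1 lower (Sfxn3), against 2.79% and 5.22%. Sfxn3, a sideroflexin, had 11.2, 18.3, 21.1, 20.8 and 27.4 CPM in CD36-positive libraries, against 57.3, 43.6, 50.8, 64.7 and 31.3 CPM in CD36-negative libraries, without overlap (log2 fold change -1.32, SE 0.27, adjusted p = 0.0046 in edgeR's quasi-likelihood test). Slc25a38, which brings glycine into mitochondria for haem synthesis, averaged 30.5 ± 9.61 CPM in the CD36-positive and 53.3 ± 8.85 CPM in the CD36-negative libraries (SD, n = 5 each; log2 fold change -0.80, SE 0.24, edgeR adjusted p = 0.0482). Its call was lost in 9 of the 10 fits that left out 1 library, with estimates of -0.99 to -0.67 and edgeR adjusted p of 0.0163 to 0.113. Among these fits it held only without CD36-positive library 4. By limma voom Slc25a38 was not called either (log2 fold change -0.69, limma voom adjusted p = 0.0653). In the lists of glutamine and glutamate enzymes (11 tested, median -0.35), branched-chain amino acid breakdown (16 tested, median -0.33) and aminoacyl-tRNA synthetases (19 tested, median -0.12), 0 genes passed the edgeR test. At an unadjusted p under 0.05 these lists had 2, 0 and 2 genes higher and 2, 2 and 2 lower, where 10.6% and 10.8% of all genes were. Of the other tools DESeq2 called 1 gene lower, Gars, against 6.07% of all genes, and limma voom called 0.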

How the data were processed

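Gene-level expected counts, as deposited by the authors for 10 libraries of sorted retinal cells, are estimates (91.9% were whole numbers) and were not normalized. The submitters' processing notes name fastp 0.18.0, Bowtie2 2.2.8, HISAT2 2.1.0, StringTie 1.3.1 and the build mm10; the counting program and its use of strand are not given in the sources used here. Of 22008 lines, 8 damaged and 131 repeated ones were dropped, leaving 21868 genes. Single-cell and spatial data were not used here.

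Expected counts were rounded to whole numbers. Genes were filtered with filterByExpr (minimum count 10), normalized with TMM factors, and the quasi-likelihood test of edgeR 4.0.16 was run in R 4.3.3 with group as its one term (glmQLFit, then glmQLFTest), with Benjamini-Hochberg adjustment over the 11595 genes tested and a threshold of 0.05. The SE of a log2 fold change was computed as its absolute value over the square root of the F statistic of the test. Intervals are 95% intervals built from that SE and a t quantile. Alternatives were DESeq2 size factors, the DESeq2 1.42.0 Wald test, limma 3.58.1 voom with quality weights, other filters, replicate blocks, libraries left out, and omission of genes near damaged lines. Transcript lengths and coordinates came from GENCODE M21 on GRCm38, the assembly also called mm10, using the APPRIS principal or else the longest transcript. The test was checked in 3 simulations with the group sizes of this comparison and 200 changed genes (about 11370 tested). At a 2-fold change 30.3% were called, at a 4-fold change 81%, and 4.07% of calls were false. Each gene had the same dispersion in every simulated library. Libraries that stand apart, as CD36-positive libraries 1 and 3 do here, were thus not modelled, and the rates may differ in the real data.

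Members and lists were chosen with earlier results of these data known. Values in every library are given for each transporter past the threshold, the 15 of highest mean CPM, and Slc7a11, Slc3a2, Slc7a5, Slc7a7, Slc1a5, Slc1a3, Slc1a2, Slc6a6, Slc38a9 and Slc36a1; other transporters serve as examples of their group. Of each other list, the 2 genes of smallest p past the threshold are named. As a check for a library deposited more than once, counts of each pair within a group were compared, and chi-square per degree of freedom was 23.3 to 116; this does not tell biological from technical replicates. Of the microglia markers, 1 is not reported here.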

Additional observations from a re-analysis of the deposited data

Results flagged for a closer look

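In 6 of 74 groups of 5 libraries looked at, 1 library lay far from the other 4, measured by its gap to the nearest library over the range of the group. For normally distributed values chance gives about 1 in 20 groups. Whether that rate holds for CPM values, some from few counts, was not checked. CD36-positive library 1 was high for Slc38a6, at 91.9 CPM beside 35.1 to 49.0 CPM in the other CD36-positive libraries. It was also high for Slc7a14, at 28.3 CPM beside 0.634 to 4.87 CPM. CD36-positive library 3 was high for Slc1a3, at 14.9 CPM beside 0.186 to 2.06 CPM, and for Slc7a11, at 17.2 CPM beside 0.186 to 3.95 CPM. CD36-positive library 4 was high for Slc7a6, at 48.5 CPM beside 16.8 to 24.5 CPM. CD36-negative library 1 was high for Slc38a2, at 190 CPM beside 116 to 130 CPM. Libraries 1 and 3 of the CD36-positive cells, with 2 such genes each, were the shallowest of the 10; the part of depth in these values was not tested.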

How the results depend on the processing

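The count of transporters higher in CD36-positive cells, 1 by the edgeR test, was 3 by the DESeq2 Wald test (Slc38a6, Slc7a14 and Slc7a2) and 0 without CD36-positive libraries 1 and 3 together. Over the 10 fits that left out 1 library it was 0 to 2, and the count lower was 1 to 3. For the other amino acid genes, 161 with a DESeq2 estimate, DESeq2 called 7 higher and 9 lower, against 4.33% and 6.07% of all genes. Leaving out 1 library gave 1 to 4 higher and 2 to 5 lower by edgeR's test. Whether same-numbered libraries were paired is not stated. Their correlations were 0.03 to 0.13 by the description numbers and -0.02 to 0.13 by the title numbers, which cannot settle it. With the replicate number as a block, 0 transporters were lower by the description numbers and 2 by the title numbers. With the description numbers, 1 of 4 libraries correlated best with its own number. With the title numbers, those numbered 2 and 5 did. Slc6a13 gave an adjusted p of 0.0652 and Slc1a5 0.0884 with the description block. Slc38a1 gave 0.21 and 0.0665 with the 2 blocks and 0.0869 with no filter on low counts. Without CD36-positive libraries 1 and 3, Slc1a5 gave a log2 fold change of -0.71 and an edgeR adjusted p of 0.0557, and Slc38a6 0.85 and 0.0864. The causes were not tested. Signs of estimates near 0 turned in some fits. Under limma voom and without CD36-positive libraries 1 and 3 they were -0.06 and -0.26 (Slc38a9), -0.03 and -0.06 (Slc43a2), -0.08 and -0.19 (Slc6a6), and -0.10 and -0.39 (Slc7a5). With 1 library left out, the ranges that crossed 0 were -1.01 to 0.10 (Slc1a2), -0.08 to 0.25 (Slc36a1), -0.10 to 0.24 (Slc38a9), -0.07 to 0.11 (Slc3a2), -0.14 to 0.21 (Slc43a2), -0.14 to 0.18 (Slc6a6), -0.01 to 0.41 (Slc7a5) and -0.21 to 0.27 (Slc7a6). The filter left out 33 transporters, and with no filter 60 were tested. DESeq2 gave an estimate for 60, while its shares are of the 14172 genes to which it gave an adjusted p. Chac2 lost its call with no filter (edgeR adjusted p = 0.0846), with the replicate blocks (0.112 and 0.0786) and without CD36-positive libraries 1 and 3 (0.0762), and was left out by the stricter filter.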
